A study of Drosophila melanogaster with 12 samples.

Results

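The mitochondrial ribosomal protein genes are the nuclear genes, named mRpL or mRpS with a number, that encode the proteins of the ribosome inside mitochondria. They were taken here from every probe set of the array that was annotated with a single gene symbol of that form. Of 11982 genes named on the array, 69 met this rule, through 71 probe sets. By the letter of the symbol alone, 44 were assigned to the large subunit (mRpL) and 25 to the small subunit (mRpS). Where a gene had several probe sets, which held for 2 genes, the one with the highest mean over all 12 arrays was used. Of the 73 genes of this form in the fly naming table, 4 were not members: mRpL53 and mRpS10 had only a probe set shared with another gene, and the annotation used here names none for mRpL34 and mRpL37.

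Mitochondria keep a ribosome of their own, descended from that of bacteria, which makes the few proteins encoded in mitochondrial DNA. Those products are subunits of the respiratory chain and of ATP synthase. The ribosomal RNAs come from mitochondrial DNA, whereas all of the ribosomal proteins are made in the cytosol from nuclear genes and imported. Many have a counterpart in the bacterial ribosome and others occur only in mitochondria. Muscle depends on this system for its supply of ATP, and the embryonic mesoderm studied here gives rise to muscle.

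Single-colour arrays were hybridised with total RNA of sorted mesodermal cells from fly embryos (Drosophila melanogaster) between late stage 11 and early stage 12, with 3 arrays in each of 4 groups. All embryos carried twi-gal4 and UAS-GFP, and cells were sorted for the GFP that this driver places in Twist-expressing cells. Slou gain-of-function embryos also carried UAS-S59, which adds the homeodomain factor Slou (slouch, S59), and were compared with wild type set 1 (arrays rep1A to rep1C). Msh gain-of-function embryos also carried UAS-msh, which adds the homeodomain factor Msh (gene symbol Dr), and were compared with wild type set 2 (arrays rep2A to rep2C). The comparisons ask which mesodermal genes change when either factor is present throughout the cells that express Twist. Whether the arrays of a group stand for different embryo collections is not in the labels. The p-values therefore rest on array-to-array spread alone, and that spread may be technical.

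The deposited values are on a log2 scale and fall into parts with different array medians. The sources do not give the scaling, and the parts were treated as separately scaled. Levels are compared only within Slou and wild type set 1 or within Msh and wild type set 2. Array medians were 2.59 to 2.72 in the first part and 3.85 to 3.91 in the second. A probe set was called changed at a Benjamini-Hochberg adjusted p under 0.05, taken over all 18769 probe sets tested with limma. The slou probe set read 11.01, 11.08 and 11.12 in Slou, against 5.45, 5.69 and 5.61 in wild type set 1, and rose by 5.48 (SE 0.11, adjusted p = 0.00152). The Dr probe set read 9.34, 9.34 and 9.38 in the arrays labelled Msh, against 8.77, 9.17 and 9.16 in wild type set 2, a change of 0.32 that did not pass (SE 0.14, limma adjusted p = 0.254) although the groups did not overlap. The added Msh thus rests on the labels, and what follows is about the arrays labelled Msh. Among 9 measured mesoderm markers, the mean log2 level on an array was 7.23 to 7.27 in Slou and 7.12 to 7.24 in wild type set 1, and 9.19 to 9.21 in Msh and 9.05 to 9.12 in wild type set 2.

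Mitochondrial ribosomal protein genes were lower in the arrays labelled Msh than in wild type set 2. Of the 69 genes, 39 fell, none rose and 30 did not pass by limma, beside 3.95% of all probe sets tested called lower and 2.86% higher. All 69 had a negative change, as did 48.1% of all probe sets. The median change over the 69 genes was -0.47 on the log2 scale, a level 0.723 times that in wild type set 2, beside a median of 0.02 over all probe sets. Changes ran from -1.02 for mRpL10 to -0.08 for mRpS9, with standard errors of 0.07 to 0.14. The highest Msh array was lower than the lowest wild-type array for 66 of the 69 genes, and for 15.3% of all probe sets. In bulk RNA of sorted cells, fewer cells of a type and less RNA per cell cannot be told apart.

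**Figure D1:**
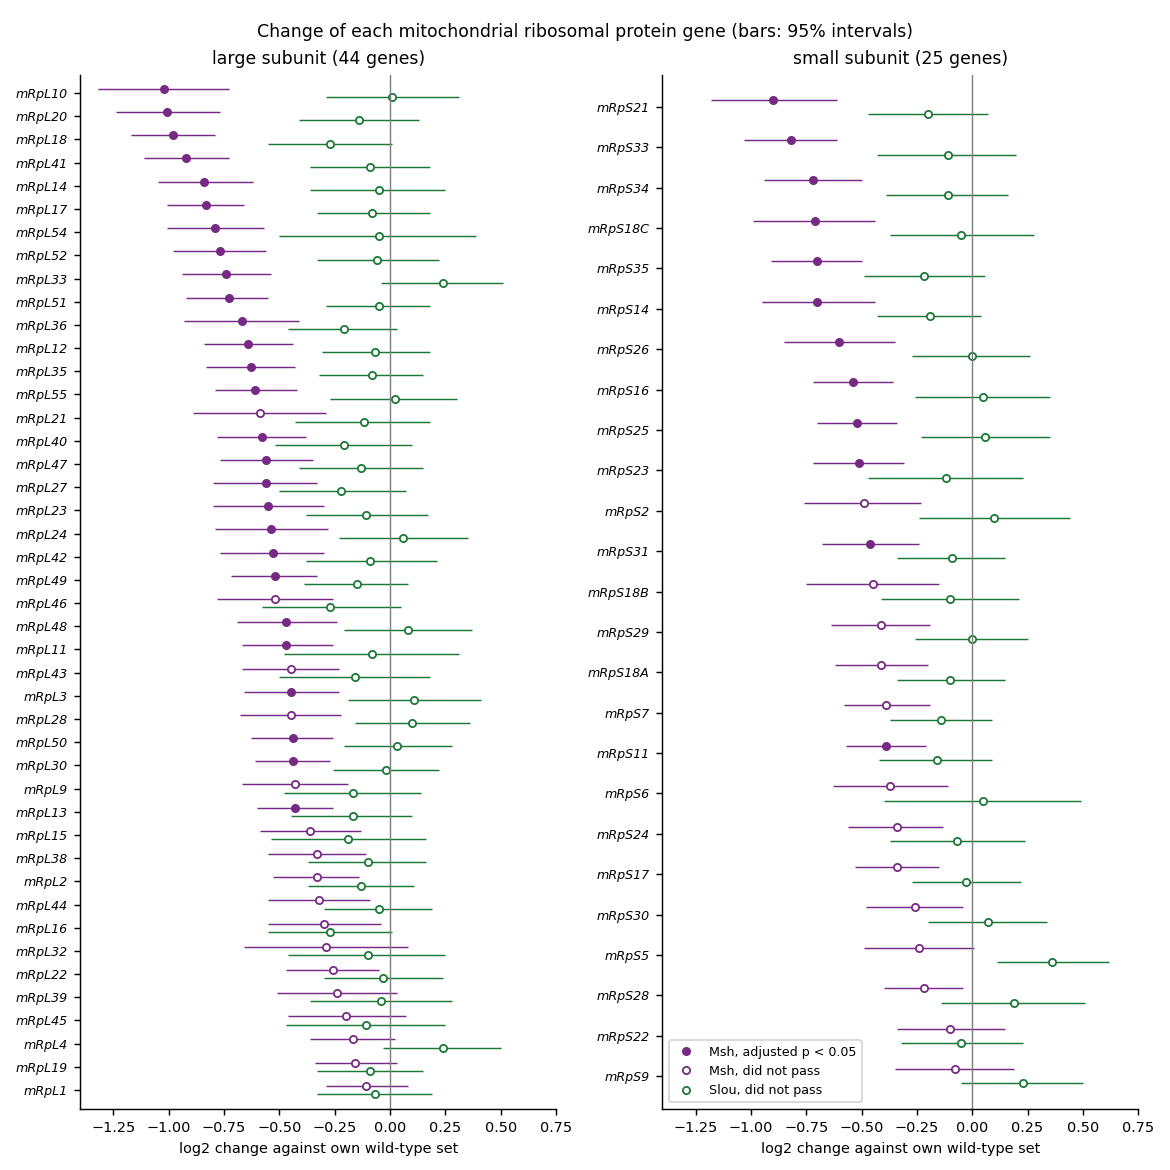
Each row is a mitochondrial ribosomal protein gene, with large-subunit genes left and small-subunit genes right. The x axis gives the log2 change of Msh against wild type set 2 (purple) and of Slou against wild type set 1 (green), bars are 95% intervals, and filled points have an adjusted p under 0.05. All 69 purple points lie left of 0 and 39 are filled, while the green points lie between -0.27 and 0.36 and none is filled.

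Several genes encode proteins of the stalk, the part of the large subunit where translation factors arrive. mRpL10, whose bacterial counterpart anchors the stalk, read 7.67, 7.72 and 7.53 in Msh, against 8.83, 8.54 and 8.63 in wild type set 2. It fell by 1.02 (SE 0.11, limma adjusted p = 0.0176), the largest fall of the 69. mRpL12, the stalk protein that recruits translation factors, read 9.46, 9.42 and 9.36 in Msh, against 10.12, 10.04 and 10.00 in wild type set 2. The groups did not overlap, and it fell by 0.64 (SE 0.08, adjusted p = 0.02). mRpL11, at the base of the stalk, fell by 0.47 (SE 0.08, adjusted p = 0.0405).

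Other genes for large-subunit proteins of bacterial type fell too. mRpL20, whose bacterial counterpart is needed early in assembly, read 7.65, 7.63 and 7.84 in Msh, against 8.68, 8.72 and 8.75 in wild type set 2. The highest Msh array was thus well below the lowest wild-type array, with a fall of 1.01 (SE 0.09, adjusted p = 0.0123). mRpL18, a relative of the bacterial protein that binds 5S ribosomal RNA, read 7.96, 7.94 and 7.83 in Msh, against 8.88, 8.90 and 8.91 in wild type set 2. It fell by 0.98 (SE 0.07, adjusted p = 0.00854), the smallest adjusted p of the members. mRpL14, which faces the small subunit in the bacterial ribosome, fell by 0.84, mRpL17 by 0.83, and mRpL33, one of the smallest proteins of the bacterial subunit, by 0.74. mRpL23 and mRpL24, which sit at the exit of the peptide tunnel in bacteria, fell by 0.55 and 0.54. mRpL3, mRpL13, mRpL27, mRpL30, mRpL35 and mRpL36 fell by 0.43 to 0.67.

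Large-subunit genes with a higher number in their symbol fell as well. mRpL41 read 7.65, 7.74 and 7.78 in Msh, against 8.67, 8.65 and 8.62 in wild type set 2, a fall of 0.92 (SE 0.07, adjusted p = 0.00946). The arrays of each group lay close together and the groups far apart. mRpL54, mRpL52 and mRpL51 fell by 0.79, 0.77 and 0.73, and mRpL55 by 0.61. mRpL40, mRpL42, mRpL47, mRpL48, mRpL49 and mRpL50 fell by 0.44 to 0.58. Of 17 such genes 11 fell (median -0.52), beside 16 of the 27 large-subunit genes with a lower number (median -0.47). The number alone does not show which proteins occur only in mitochondria. The difference between those groups was not tested.

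Of the 25 genes assigned to the small subunit by symbol 12 fell, with a median change of -0.45 over all 25. This stood beside 27 of 44 and -0.52 for the large subunit. mRpS21 read 8.99, 9.04 and 8.99 in Msh, against 9.72, 10.06 and 9.91 in wild type set 2, and fell by 0.90 (SE 0.11, adjusted p = 0.0215). mRpS33, a mitochondria-specific protein, read 8.42, 8.28 and 8.39 in Msh, against 9.2, 9.22 and 9.13 in wild type set 2. No Msh value reached the wild-type range, and mRpS33 fell by 0.82 (SE 0.08, adjusted p = 0.0146). mRpS34 and mRpS35, also mitochondria-specific, fell by 0.72 and 0.70, and mRpS14, which sits in the head of the bacterial subunit, by 0.70. mRpS11, mRpS16, mRpS23, mRpS25, mRpS26 and mRpS31 fell by 0.39 to 0.60. Split by the number in the symbol alone, 7 of the 12 genes with a higher number fell (median -0.49). Of the 13 with a lower number 5 fell (median -0.41). This split does not show which proteins have a bacterial counterpart, and the difference was not tested.

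Proteins related to bacterial S18 are encoded by the paralogs mRpS18A, mRpS18B and mRpS18C, whose mammalian forms occupy different places in the ribosome, that of mRpS18C matching bacterial S18. mRpS18C read 8.53, 8.41 and 8.37 in Msh, against 9.28, 9.18 and 9.0 in wild type set 2, and fell by 0.71 (SE 0.11, adjusted p = 0.0309). mRpS18A had a change of -0.41 (SE 0.08, adjusted p = 0.0545) and mRpS18B one of -0.45 (SE 0.12, adjusted p = 0.0961), neither of which passed. In all of them the Msh and wild-type values did not overlap. The mRpS18B probe set is of a type (suffix s_at) that can read more than 1 transcript, so its value is less certain.

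Members that did not pass by limma ranged from close to their wild-type level to below it. mRpS9, whose bacterial counterpart touches the transfer RNA being extended, read 9.40, 9.40 and 9.33 in Msh, against 9.62, 9.42 and 9.32 in wild type set 2. The groups overlapped, with a change of -0.08 (SE 0.11, 95% interval -0.35 to 0.19). mRpS22, a mitochondria-specific protein, also overlapped, at 9.58, 9.57 and 9.46 in Msh, against 9.75, 9.54 and 9.61 in wild type set 2. mRpL45, which in mammals faces the inner membrane at the tunnel exit, was the only other member whose groups overlapped, with a change of -0.20 (SE 0.10, adjusted p = 0.345). mRpL1, the protein of the other stalk, had a change of -0.11 (SE 0.07, 95% interval -0.29 to 0.08), so a fall as large as the median of the members lay outside its interval. mRpL19, mRpL4 and mRpS28 had changes of -0.16, -0.17 and -0.22. mRpL2, close to the catalytic centre in bacteria, and mRpL22, in the tunnel wall, had changes of -0.33 and -0.26. Their 95% intervals were -0.53 to -0.14 and -0.47 to -0.05. Neither passed, although the groups did not overlap. The genes nearest the threshold without passing, mRpL21, mRpL43, mRpL46 and mRpS7, had changes of -0.59 to -0.39 and adjusted p of 0.0505 to 0.0521. Of the 30 genes that did not pass, 21 had an unadjusted p under 0.05, all with a negative change. With the 39 that makes 60 of 69, where 11.1% of all probe sets had an unadjusted p under 0.05 and a negative change.

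**Figure D2:**
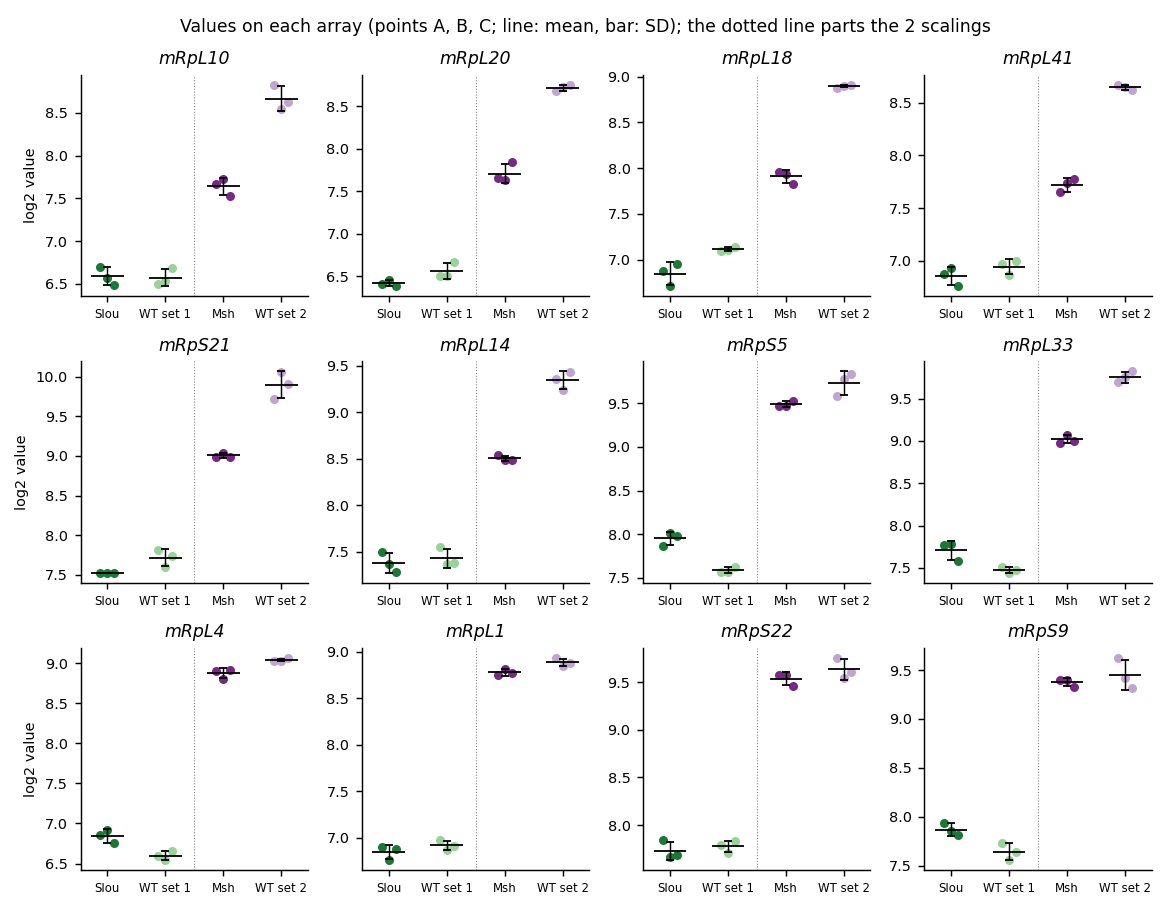
Log2 values of 12 mitochondrial ribosomal protein genes on each array (points for arrays A, B and C, line for the mean, bar for the SD). They are the 6 most lowered in Msh, the 3 most positive in Slou and the 3 least lowered in Msh, and each panel has its own y range. Values left and right of the dotted line are treated as separately scaled and are not to be compared.

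The 2 genes with a second probe set were mRpS11 and mRpL47. The second probe set of mRpS11 gave a change of -0.54 in Msh (SE 0.09, adjusted p = 0.0402), beside -0.39 for the one used. That of mRpL47 gave -0.41 (SE 0.08, adjusted p = 0.0505), just short of the threshold, beside -0.56. Both genes were thus lower by either probe set. The genes tko and bonsai, which encode the fly counterparts of small-subunit proteins S12 and S15 but whose symbols the rule does not match, were measured as well. tko, known for seizure-prone mutants, read 8.88, 8.82 and 8.86 in Msh, against 9.51, 9.49 and 9.48 in wild type set 2, and fell by 0.64 (SE 0.07, adjusted p = 0.0162). bonsai fell by 0.38 (SE 0.07, adjusted p = 0.0478).

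The lowering was similar on the 3 Msh arrays. The median distance of the 69 genes from their wild-type mean was -0.46, -0.49 and -0.50 on Msh arrays A, B and C, against 0.04, -0.02 and -0.04 on the arrays of wild type set 2. All 69 genes lay below the wild-type mean on each Msh array, against 15 to 47 on the wild-type arrays. The wild-type arrays themselves make up that mean, so their distances from it cancel out for each gene by construction. Across the 69 genes the change in Msh had a Pearson correlation of 0.05 with the level in wild type set 2, a description over genes that share the same 6 arrays.

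**Figure D3:**
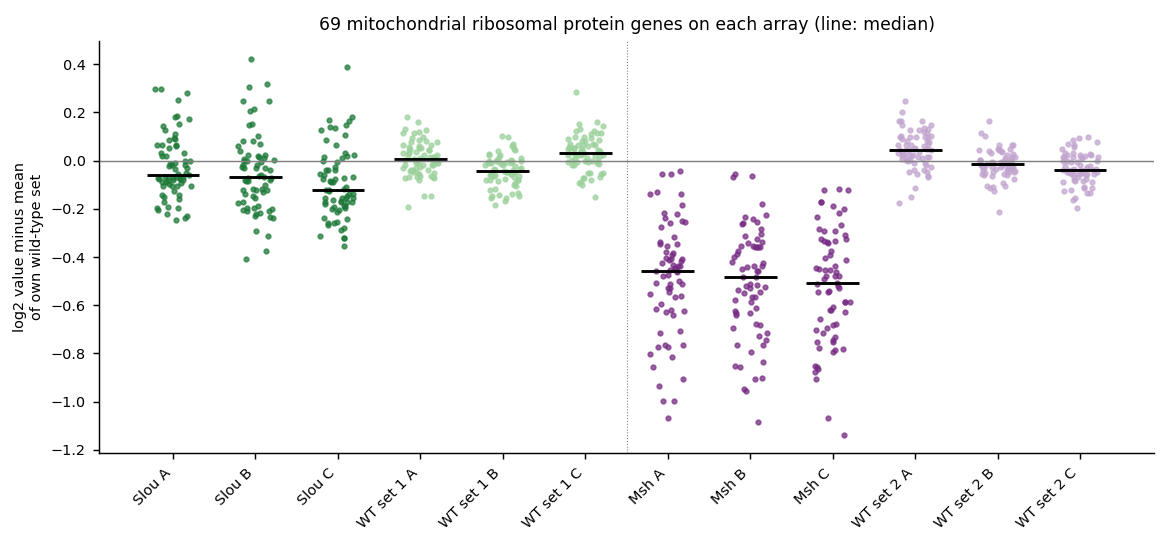
Each point is 1 of the 69 mitochondrial ribosomal protein genes on 1 array, as its log2 value minus its mean in the wild-type set of the same scaling, and lines are medians over the genes. The medians of the Msh arrays are -0.46, -0.49 and -0.50, those of the Slou arrays -0.06, -0.07 and -0.12, and those of the wild-type arrays lie between -0.04 and 0.04. The wild-type arrays make up the mean subtracted, so their distances from it cancel out for each gene.

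The number of genes called depended on every array. It was 0 without any 1 of the Msh arrays A, B or C, and 15, 2 and 3 without wild-type array A, B and C, by limma. With 5 arrays fewer probe sets were called in general, 16 to 602 of 18769 beside 1278 with all 6. The median change stayed between -0.51 and -0.45 in these fits, and 55 to 60 members had an unadjusted p under 0.05 and a negative change. Of all 18769 probe sets, 3282 to 4337 had an unadjusted p under 0.05 in either direction. With the replicate letter as a block the count of members called was 0 as well, and so was that of all probe sets. There 54 members had an unadjusted p under 0.05, as did 3479 of all 18769 probe sets. In the other direction, 64 members fell with an intensity trend in the variance prior, beside 9.21% of all probe sets called lower. Among the 8792 probe sets with a mean of at least 4, 62 members fell, beside 20.3%. Against wild type set 1, after quantile normalization of all 12 arrays, 46 members fell, 1 rose (mRpL4, by 0.39) and 66 had a negative change, with 9.91% of all probe sets called lower. That comparison crosses the parts treated as separately scaled.

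**Figure D4:**
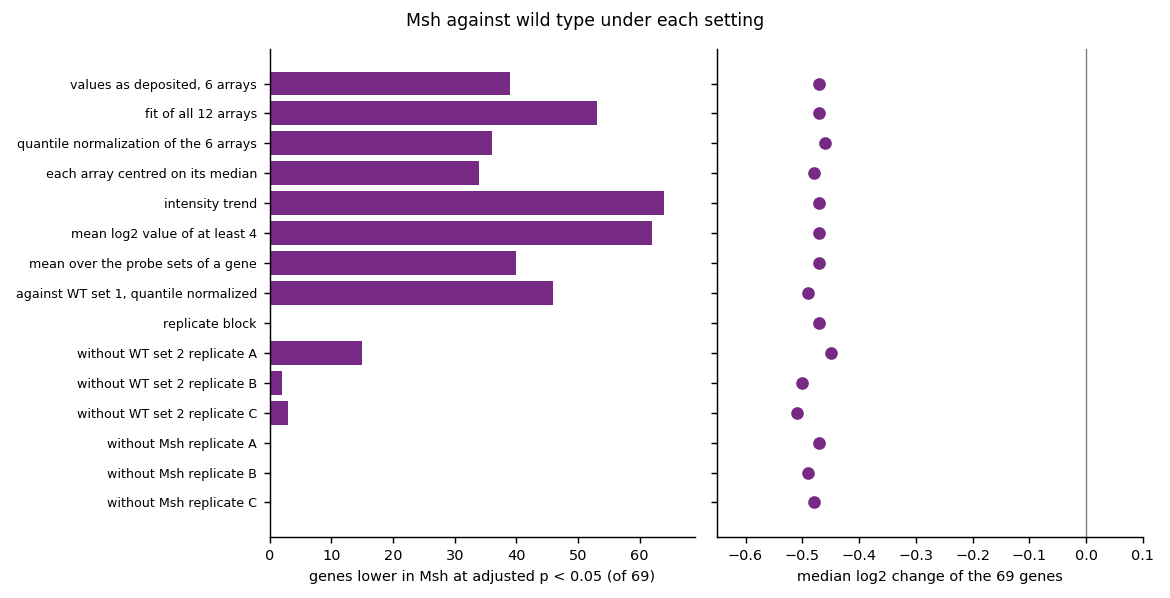
Left, bars give how many of the 69 mitochondrial ribosomal protein genes were lower in Msh at an adjusted p under 0.05 under each setting. Right, points give their median log2 change; wild type set 1 as deposited is not drawn. The count runs from 0 to 64 and the median from -0.51 to -0.45.

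Other measures moved with the Msh group. The added poly-A control transcripts averaged 9.11 ± 0.15 in Msh and 10.75 ± 0.45 in wild type set 2 (SD, n = 3 each). For Act5C, the 3' control probe set minus the 5' one was 2.23 ± 0.10 in Msh and 1.44 ± 0.04 in wild type set 2 (SD, n = 3 each), and for eIF-4a this was 1.74 ± 0.07 in Msh and 1.52 ± 0.10 in wild type set 2. Of the markers of other cell types, 3 of 4 measured epidermal genes (crb, sdt and grh) rose, with a mean level per array of 9.46 to 9.54 in Msh and 8.63 to 8.99 in wild type set 2. Among 7 neural markers 2 rose and 1 fell (9.29 to 9.33 in Msh, 9.02 to 9.12 in wild type set 2), and among 6 hemocyte markers 2 fell (7.46 to 7.55 in Msh, 8.34 to 8.41 in wild type set 2). Of 3 fat body markers 1 rose and 1 fell (4.66 to 5.49 in Msh, 5.36 to 6.0 in wild type set 2), and of 3 trachea and gut markers 1 rose (7.04 to 7.27 in Msh, 6.61 to 6.66 in wild type set 2). Neither germline marker passed (3.65 to 3.90 in Msh, 3.67 to 4.04 in wild type set 2). Among the 9 mesoderm markers 1, twi, rose and 2 fell. Of all probe sets, 2.86% were called higher in Msh and 3.95% lower. The part of these in the lower mitochondrial ribosomal protein levels was not tested.

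In Slou no mitochondrial ribosomal protein gene passed. By limma 0 of 69 were called and 1 had an unadjusted p under 0.05, where 2.31% and 15.1% of all probe sets did so. The median change was -0.08, beside -0.01 over all probe sets, and 52 genes had a negative change and 17 a positive one (50.7% and 49.3% of all probe sets). By the probe sets used, changes ran from -0.27 for mRpL16 to 0.36 for mRpS5. The second probe set of mRpS11 gave -0.38 (SE 0.12, limma unadjusted p = 0.0302, adjusted p = 0.27), beside -0.16 for the one used. Its Slou values lay wholly below those of wild type set 1. The second probe set of mRpL47 gave -0.15, beside -0.13. For 58 of the 69 genes the 95% interval of the change lay wholly between -0.5 and 0.5, so that a change of -0.5, which 33 genes reached in Msh whether or not they passed, lay outside it. The groups were apart with Slou lower for 17 genes and with Slou higher for 5, where 12.8% of all probe sets were apart with Slou lower and 25.3% either way.

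Marker genes and the poly-A controls moved with the Slou group as well. The poly-A control transcripts averaged 6.04 ± 0.11 in Slou and 6.71 ± 0.03 in wild type set 1 (SD, n = 3 each). For Act5C, the 3' minus 5' value was 1.47 ± 0.02 in Slou and 1.44 ± 0.02 in wild type set 1. For eIF-4a it was 1.62 ± 0.03 in Slou and 1.65 ± 0.04 in wild type set 1. Of 9 mesoderm markers 1, sns, rose by 1.59 and 1, nau, fell by 1.63. Of 7 neural markers 2 fell, nerfin-1 by 1.15 and pros by 0.98 (a mean level per array of 5.61 to 5.74 in Slou, 6.31 to 6.52 in wild type set 1). Of 6 hemocyte markers 1, Pxn, rose by 1.08 and 1, gcm, fell by 1.75 (5.89 to 6.86 in Slou, 6.55 to 7.0 in wild type set 1). Of 3 fat body markers 1, apolpp, fell by 2.77 (2.30 to 2.91 in Slou, 3.08 to 4.11 in wild type set 1). No marker passed by limma among 4 epidermal genes (5.73 to 5.85 in Slou, 5.97 to 6.14 in wild type set 1), 2 germline genes (1.94 to 2.22 in Slou, 1.83 to 2.43 in wild type set 1) or 3 trachea and gut genes (4.94 to 5.48 in Slou, 3.78 to 4.83 in wild type set 1), with 1, 0 and 1 at an unadjusted p under 0.05. The part of these in the Slou values of the mitochondrial ribosomal protein genes was not tested.

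mRpS5, whose bacterial counterpart takes part in accurate decoding, had the most positive change in Slou. It read 7.87, 8.01 and 7.98 in Slou, against 7.57, 7.57 and 7.63 in wild type set 1. Every Slou array was above every wild-type array, but the change of 0.36 did not pass (SE 0.10, limma adjusted p = 0.189). mRpL4, a protein of the peptide tunnel wall in bacteria, mRpL33, mRpS9 and mRpS28 also lay wholly above, with changes of 0.24, 0.24, 0.23 and 0.19. At the other end, mRpL16 read 7.67, 7.50 and 7.46 in Slou, against 7.75, 7.84 and 7.85 in wild type set 1, and mRpL18 read 6.88, 6.71 and 6.95, against 7.10, 7.11 and 7.14 in wild type set 1. The groups of both genes were apart, each with a change of -0.27 (SE 0.11). mRpL46, mRpS35, mRpL27 and mRpL36 had changes of -0.27, -0.22, -0.22 and -0.21. tko and bonsai had changes of -0.08 and -0.11.

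Some members were called in Slou under other settings. Among the 6737 probe sets with a mean of at least 4, mRpS5, mRpL33, mRpL4 and mRpS9 rose and mRpL18, mRpL36, mRpL16 and mRpS14 fell, where 16% of those probe sets rose and 15.7% fell. With an intensity trend mRpS5, mRpL33, mRpL4 and mRpS9 again rose and 7 others fell, where 6.39% of all probe sets rose and 6.29% fell. mRpS5 rose by 0.36 in a fit of all 12 arrays too (SE 0.09, adjusted p = 0.0335). Against wild type set 2 after quantile normalization of all 12 arrays, mRpL33 and mRpL4 had changes of -0.20 and -0.32, the opposite sign, and mRpL46 and mRpS35 turned to 0.21 and 0.05. No member was called without any single array or with the replicate letter as a block. Few probe sets of any kind were called there, 0 to 49 without a single array and 0 with the block. These fits therefore say little about the members.

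The change in Slou and the change in the arrays labelled Msh differed for 32 of the 69 genes. In a limma fit of all 12 arrays, the Slou change minus the Msh change was positive for all 69 genes (49.1% of all probe sets) and passed for 32, where 4.76% of all probe sets passed in that direction and 4.46% in the other. The median of this difference was 0.42, beside -0.01 over all probe sets. It was 1.03 for mRpL10 (SE 0.15, adjusted p = 0.00348), which had a change of 0.01 in Slou. It was 0.97 for mRpL33 (SE 0.11, adjusted p = 0.00112), with changes of 0.24 in Slou and -0.74 in Msh. mRpL20, mRpL41, mRpL14, mRpL17 and mRpL54 followed, at 0.87 to 0.74. Of the 39 genes that fell in Msh, 28 passed here (71.8%), which is 87.5% of the 32. The other 4 that passed were mRpL28, mRpL4, mRpS2 and mRpS5, which had positive changes in Slou and negative ones in Msh without passing in either. tko passed, with a difference of 0.56 (adjusted p = 0.0156). The count was 16 to 26 when 1 array was left out, lowest without Msh array B, C and A at 16, 17 and 21, and 21 also without Slou array B. Blocking on the replicate letter gave 18. All probe sets called in either direction numbered 1036 to 1412 with 1 array left out and 1107 with the block. The member count was 53 with an intensity trend (7.73% of all probe sets) and 51 among probe sets with a mean of at least 4 (19.9%). Markers passed in the 12-array fit too. All 4 epidermal and 5 of 7 neural markers did so with a negative difference. Of 6 hemocyte markers 3 passed with a positive difference (Hml 2.81, Pxn 0.95 and PPO1 0.78) and 1 with a negative one (gcm, -1.61). Of 9 mesoderm markers sns (1.56) and nau (-1.21) passed, and of 3 fat body markers apolpp (-1.44). None of 2 germline and 3 trachea and gut markers passed by limma, and none of these had an unadjusted p under 0.05. The part of the markers in the difference was not tested. Since the 4 groups fall into 2 parts with different array medians, a unit of log2 may not mean the same in both.

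Across the 69 genes the changes in Slou and Msh, which share no array, had a Pearson correlation of 0.29 and a Spearman correlation of 0.23. Across the 7636 probe sets with a mean of at least 4 over the 12 arrays these were 0.22 and 0.05. Both are descriptions over genes measured on the same arrays.

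Genes that work with the mitochondrial ribosome were measured too. Of all probe sets, 3.95% were called lower in Msh and 2.86% higher. Of 12 measured factors of mitochondrial gene expression 3 fell in Msh and none rose (median -0.24). mRRF1, which frees the ribosome after termination, read 5.55, 5.52 and 5.51 in Msh, against 6.78, 6.51 and 6.58 in wild type set 2, and fell by 1.10 (SE 0.10, adjusted p = 0.0122). mEFTs, an elongation factor, fell by 0.56, and TFAM, which packages mitochondrial DNA, by 0.54. Of 14 mitochondrial tRNA synthetases 1 fell (median -0.27). PheRS-m, which charges phenylalanine, read 9.69, 9.77 and 9.69 in Msh, against 10.68, 10.67 and 10.66 in wild type set 2, a fall of 0.95 (SE 0.07, adjusted p = 0.00797). Among 8 import genes Tim9a and Tim8, small carriers between the membranes, fell by 0.53 and 0.47 (list median -0.24). Tim13 of the same list went the other way at low levels, 4.10 in Msh and 1.37 in wild type set 2. Its change of 2.74 did not pass (SE 0.67, limma adjusted p = 0.0879). In Slou no gene of these lists passed by limma, with 0 of 12, 3 of 14 and 0 of 8 at an unadjusted p under 0.05. Of all probe sets, 2.31% passed in Slou and 15.1% had an unadjusted p under 0.05.

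Regulators of growth and of mitochondrial genes did not pass in Msh or Slou. Dref, a factor for promoters of proliferation genes, had changes of 0.35 in Msh (adjusted p = 0.0743) and -0.41 in Slou (adjusted p = 0.162). By limma its changes differed by -0.75 (SE 0.11, adjusted p = 0.00346). Max, the partner of Myc, had changes of -0.38 in Msh (adjusted p = 0.0504) and 0.01 in Slou, and these differed by 0.39 (adjusted p = 0.031). ewg, the fly relative of nuclear respiratory factor 1, and Ets97D, that of GABP alpha, had changes of -0.05 and 0.10 in Msh. These are the 4 measured of 8 regulators listed.

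The respiratory chain holds the products of the mitochondrial ribosome, and the cytosolic ribosome is its counterpart outside the organelle. Of 74 nuclear genes of the respiratory chain and ATP synthase, 36 fell in Msh and 1, UQCR-11, rose (by 0.61), with a median change of -0.47. Of all probe sets, 3.95% were called lower in Msh and 2.86% higher. In Slou none of the 74 passed by limma, with 2 at an unadjusted p under 0.05 (median -0.05). There 2.31% of all probe sets passed and 15.1% had an unadjusted p under 0.05. The complex I genes ND-13B, ND-15 and ND-13A had the largest falls, at 0.93, 0.87 and 0.81. Of 41 genes with cytosolic ribosomal protein symbols, RpS19b alone fell in Msh, by 1.03 (SE 0.16, limma adjusted p = 0.034). Its level was low, at 4.96 in Msh and 5.99 in wild type set 2. Over the 41 genes the median change was -0.05, and over the 36 with a mean of at least 4 it was -0.04. Of the 41, 5 had an unadjusted p under 0.05, as did 4275 of all 18769 probe sets. In Slou 0 of 41 passed, with 1 at an unadjusted p under 0.05 (median -0.02). The median level of the cytosolic probe sets was 13.25 in wild type set 2, near the highest value on those arrays of 13.7, and whether bright values are compressed was not tested. The differences between these lists and the mitochondrial ribosomal protein genes were not tested.

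**Figure D5:**
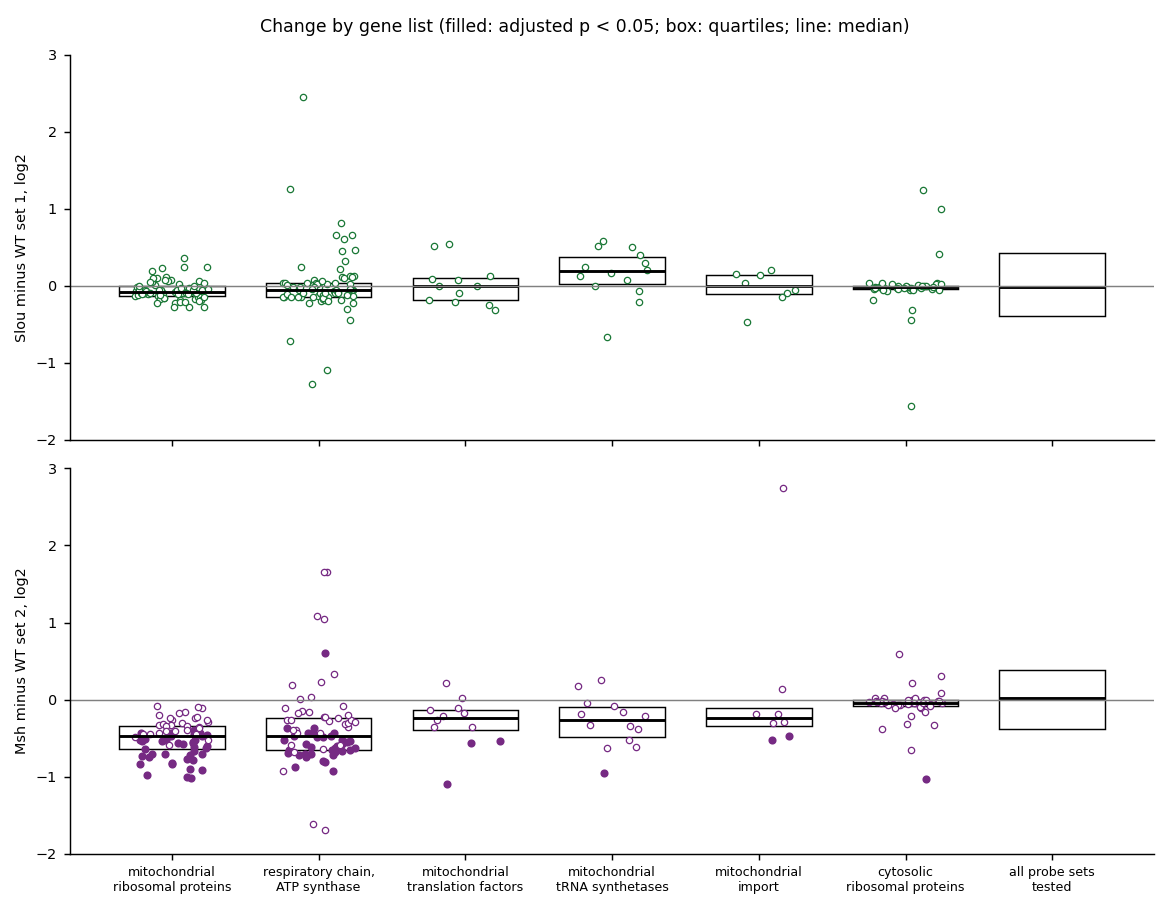
Log2 change by gene list, for Slou against wild type set 1 (top) and Msh against wild type set 2 (bottom). Points are genes, filled at an adjusted p under 0.05, boxes span the quartiles and lines are medians; for all probe sets only the box is drawn. In Msh the medians are -0.47 for mitochondrial ribosomal proteins and for the respiratory chain, and -0.05 for cytosolic ribosomal proteins.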

How the data were processed

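Per the labels, total RNA of sorted cells was labelled with biotin, and per the submitters' processing notes the authors used the R package affy; background correction, scaling and summary are not given in the sources used here. The deposited table holds log2 values, a base read from their size, for 18952 probe sets on 12 arrays. No genome build is named, so no coordinates or sequences are given.

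After leaving out 183 control probe sets, 18769 were tested. Of these, 13647 had 1 gene, 402 several and 4720 none in the platform annotation; all 69 members matched the RefSeq naming table. Tests used limma 3.58.1 in R 4.3.3 (lmFit and eBayes, Benjamini-Hochberg adjustment over all probe sets, threshold 0.05). Each comparison used 6 arrays of 1 part, and the difference between changes used 12 arrays with 4 group means. Standard errors and 95% intervals are the moderated ones. The number of arrays limits precision.

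The members and lists were chosen with earlier results of these data known, so lists are described by counts and medians without a test. Members were also split by number, at below 37 in the large and below 22 in the small subunit, after values were seen. That split follows the symbol and not a comparison with bacterial proteins. Members named are those called, the 6 most positive and negative per comparison, the 5 highest and lowest in mean, and the S18 paralogs, 57 in all, with tko, bonsai and the genes called of other lists; the few others were named after their values were seen.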

Additional observations from a re-analysis of the deposited data

Results flagged for a closer look

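The change in Slou minus the change in Msh passed for 32 of the 69 mitochondrial ribosomal protein genes in the limma fit of all 12 arrays, each time with the higher value in Slou. These genes drew attention because the change in the Slou arrays differed from that in the arrays labelled Msh in a direct test. The difference among the 32 was largest for mRpL10, at 1.03. The comparison spans the parts of the deposited values that were treated as separately scaled.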

How the results depend on the processing

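The negative median of the 69 genes in Msh kept its sign under all settings tried except against wild type set 1 as deposited, where all probe sets shifted by a median of 1.52: there 69 members were called higher and 0 lower, their median was 1.38, and 10015 probe sets were called. The same crossing for Slou, against wild type set 2 as deposited, shifted all probe sets by -1.54, with 69 members lower, a median of -1.96 and 9737 probe sets called. Single genes were not tabulated for that setting, since the parts differ in scale. After quantile normalization of 12 arrays, Slou against wild type set 2 called 2007 probe sets and 1 member, mRpL55, lower, and the Slou changes of mRpL46 (0.21), mRpS35 (0.05), mRpL33 (-0.20) and mRpL4 (-0.32) turned; Msh against wild type set 1 called 3633 probe sets, with 1 member higher. The cause was not tested.

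With an intensity trend, 2380 probe sets were called in Slou (4 members higher, 7 lower), 3621 in Msh (64 lower) and 2944 in the difference (53 higher). With a mean of at least 4 these were 2135 (4 higher, 4 lower), 3586 (62 lower) and 3087 (51 higher). A fit of 12 arrays called 1591 in Slou, with 1 member higher. Leaving out 1 array gave 0 to 49 probe sets in Slou, 16 to 602 in Msh with 0 to 15 members lower (median -0.51 to -0.45), and 1036 to 1412 in the difference with 16 to 26 members higher. With the replicate block, 0 probe sets were called in Slou (2105 at an unadjusted p under 0.05), 0 in Msh (3479 unadjusted, 0 members lower) and 1107 in the difference (18 members higher). Same-letter arrays correlated by only -0.0143 to 0.0304 in their deviations, so the letters show no pairing. Quantile normalization, median centring and averaging probe sets left the counts of members within 1.5 times. No background measure was used; the lowest member value was 5.73, above every array median.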
